A study of Mus musculus with 16 samples.

Results

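Left ventricles of mice without PPARalpha (PPARalpha-/-, called KO) were compared with wild-type (WT) ventricles after 28 days of TAC, transverse aortic constriction, an operation that narrows the aorta so that the ventricle ejects against a raised pressure. The members were taken from the sample titles: 4 arrays titled KO TAC and 4 titled WT TAC, 8 of the 16 arrays in the series. The other arrays came from the same genotypes after a sham operation, 4 KO sham and 4 WT sham, and serve here to show which genotype differences were also present without the constriction. Total RNA was hybridised to Affymetrix mouse arrays, and every level below is a signal intensity on a linear scale, listed for arrays 1, 2, 3 and 4 of a group in that order. Strain, sex, age, the way the gene was inactivated and whether an array stands for 1 animal or for pooled animals are unstated in the labels, so the p-values below measure how far these arrays spread. The KO groups share the loss of PPARalpha, and the sham groups share the absence of the constriction; the labels name no drug or other allele.

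PPARalpha is a nuclear receptor that is activated by fatty acids and binds DNA together with a retinoid X receptor, at a pair of AGGTCA-like hexamers separated by a single base. In the heart it raises the transcription of genes for the uptake, storage and mitochondrial and peroxisomal oxidation of fatty acids, the main fuel of the adult ventricle. Sustained pressure overload is known for a shift away from fatty acids, for the return of fetal sarcomere genes and for deposition of collagen, and the comparison asks how the genotypes differ once that load has been in place. The study's stated purpose was to find PPARalpha-dependent differences in the resting heart and under sustained load.

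Markers of ventricular cardiomyocytes were among the brightest genes of all 8 arrays: the 15 listed markers ranked at the 98.3rd percentile of all genes or above. The deposited arrays had each been scaled to the same trimmed mean, but their medians differed, from 108.3 to 135.2 in KO TAC and from 124.8 to 135 on 3 of the WT TAC arrays, with WT TAC 3 higher still. WT TAC 3 stood apart, with the highest median, the highest mean spike-in signal (13.36 on the log2 scale) and the lowest mean correlation with its own group (0.888), while KO TAC 2 and KO TAC 3 had the lowest medians (108.3 and 114.5) and the lowest spike-in signals (12.42 and 12.28). The counts of called genes are given with and without these arrays, as are some of the genes named below. Spike-in signal also differed between the groups as a whole, from 12.91 to 13.36 in WT TAC and from 12.28 to 12.95 in KO TAC. A fit with spike-in signal as a covariate therefore cannot fully separate it from genotype. The signal of 3 atrial genes also varied from array to array and was higher in the KO TAC group, as described with the sarcomere genes. As a measure of RNA quality, the ratio of 3′ to 5′ signal was 0.77 to 0.79 in KO TAC and 0.75 to 0.80 in WT TAC for Gapdh, and 1.18 to 1.36 against 1.28 to 1.53 for beta-actin. The part of these properties in the results was not tested beyond the fits given with them.

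Of 10916 genes tested, 268 (2.46%) differed between KO TAC and WT TAC at an adjusted p under 0.05: 144 (1.32%) rose in the KO and 124 (1.14%) fell. The split depended on scaling. With each array centred on its median, the median difference of all genes moved to 0.22 on the log2 scale, and 238 genes were higher and 40 lower. With quantile normalization the counts were 126 and 109. Leaving out WT TAC 3, KO TAC 2 and KO TAC 3 together left 12 genes higher and 44 lower, and leaving out a single array gave totals from 133 (without KO TAC 3) to 244, with 135 without KO TAC 2, 146 without WT TAC 4 and 175 without WT TAC 2. All 268 genes kept their direction in each of these fits. Groups did not overlap for 1043 genes (9.55%), 560 higher (5.13%) and 483 lower (4.42%), and this background applies wherever arrays are described as separate below.

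Genes that fell under load were mostly genes that were already lower in KO hearts without load. Among the 124, 104 (83.9%) were lower in KO sham than in WT sham, against 45.6% of all tested genes, and 45 (36.3%) were called lower there too. Conversely, 45 (80.4%) of the 56 genes called lower in KO sham (0.513% of those tested) were called lower under TAC. The median difference of the 124 was -0.73 under TAC and -0.38 after sham operation. Of the 144 that rose, 99 (68.8%) were higher in KO sham, against 54.4% of all tested genes, and 14 (9.72%) were called higher there, which is 56% of the 25 called higher in sham (0.229% of those tested). Their median was 0.71 under TAC and 0.13 after sham operation, and 88 (61.1%) lay within 0.25 of no difference in sham hearts, where 45 (36.3%) of the genes that fell and 73.8% of all genes did. Because the 124 and the 144 genes were chosen by their TAC values, smaller median differences after sham operation are expected from the selection alone. The TAC and sham contrasts have no array in common, but both use the same estimate of spread for each gene, so their calls are not independent. A direct test of the difference between them called none of the 10916 genes (0%) with limma and Benjamini-Hochberg adjustment, although 1128 (10.3%) had an unadjusted p under 0.05. That test gave 13 calls when limma was run with trend and robust settings.

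**Figure D1:**
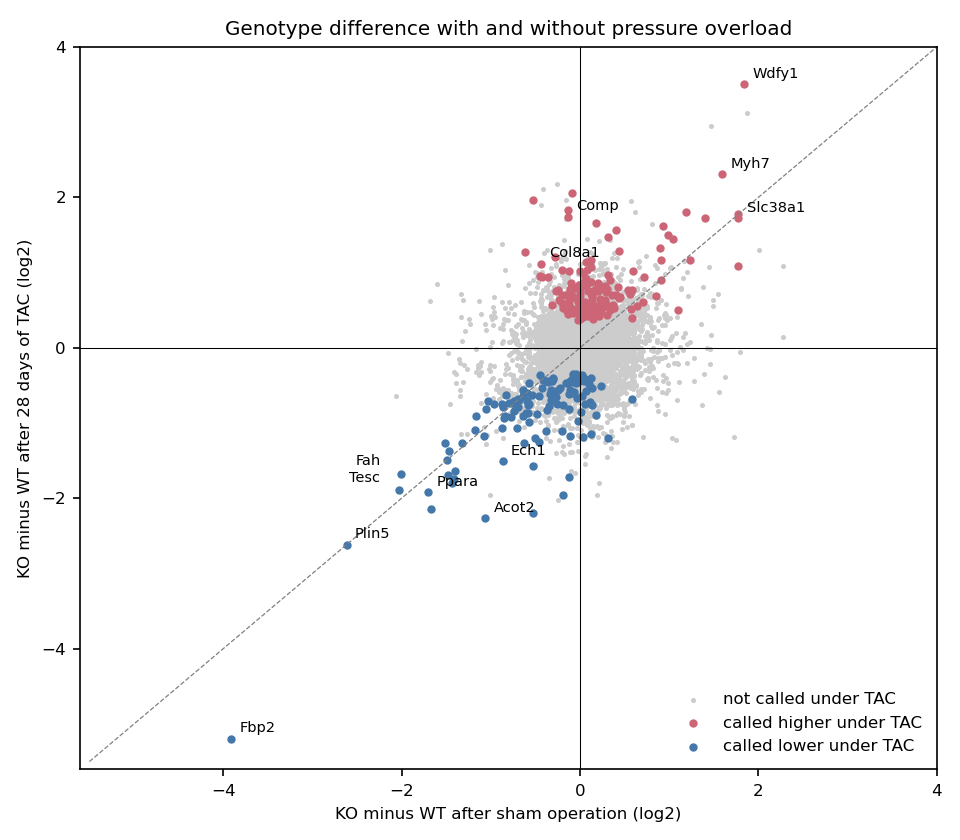
Each point is 1 of the 10916 tested genes: its KO minus WT difference after sham operation (horizontal axis, log2) against that after 28 days of TAC (vertical axis, log2), 4 arrays per group, with the dashed line marking equal differences. Of the 124 genes called lower under TAC (blue), 104 were also lower in KO sham. The medians of the 124 were -0.73 under TAC and -0.38 after sham operation, where a smaller size is expected because the genes were chosen by their TAC values. Fbp2 and Plin5 lie farthest down, while many of the 144 called higher (red) lie above a sham difference near 0.

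Ppara itself, the gene inactivated in the KO, had signals of 2171, 1558, 1385 and 1921 in WT TAC and 525, 424, 507 and 388 in KO TAC. The sham arrays showed the same order, with 2308, 1969, 1546 and 2214 in WT and 727, 562, 652 and 524 in KO. No KO array reached the lowest WT array under either operation, so the targeted gene went against no label. The difference under TAC was -1.92 ± 0.17 on the log2 scale (SE, n = 4 per group, adjusted p = 1.18e-05), a 3.79-fold lower signal, and its 3 probe sets ranged from -3.33 to -1.38. Which part of the gene was altered, and so whether these probes lie inside it, is unstated in the labels, and the remaining signal is not read as remaining transcript. The related receptors did not pass the test: Ppard, the delta isotype, differed by 0.22 ± 0.20 (adjusted p = 0.651) and Pparg, the gamma isotype, by 0.41 ± 0.29 (adjusted p = 0.525). Ppargc1a, a coactivator of these receptors that drives mitochondrial biogenesis, ranged from 3252 to 4896 in WT TAC and from 2439 to 4660 in KO TAC, overlapping groups with a difference of -0.43 ± 0.22 (adjusted p = 0.343). Of the 20 tested genes for PPAR isotypes, partners and coactivators, the other call was Rxrg, the gamma retinoid X receptor, at -0.36 ± 0.09, and it was lost on leaving out any 1 of the 8 arrays (adjusted p = 0.0602 to 0.135) and with arrays centred on their medians (-0.17, adjusted p = 0.46).

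Mitochondrial fatty acid oxidation was the most affected list. Of its 24 tested genes, 17 fell in KO TAC and none rose, with a median difference of -0.66, where all tested genes had a median of 0.03 and 1.14% fell. After sham operation 10 of the 24 were lower, with a median of -0.34. The losses ran through the pathway from the entry of acylcarnitines to the transfer of electrons. Slc25a20 encodes the carnitine-acylcarnitine carrier of the inner membrane, and its signals were 5818, 9545, 7450 and 8123 in WT TAC and 3197, 2800, 2128 and 2844 in KO TAC. The groups were well apart, by -1.49 ± 0.23 (adjusted p = 0.00314). Cpt2, which rebuilds acyl-CoA inside the mitochondrion, gave 7438, 6766, 6851 and 7735 in WT TAC against 2754, 3079, 3157 and 3014 in KO TAC. The WT arrays were more than 2-fold brighter throughout, with a difference of -1.26 ± 0.10 (adjusted p = 6.14e-06). Cpt1a, the liver-type carnitine palmitoyltransferase, did not pass, at 0.16 ± 0.20 (adjusted p = 0.753); the muscle type, Cpt1b, is not analysed here because no probe set names it alone.

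**Figure D2:**
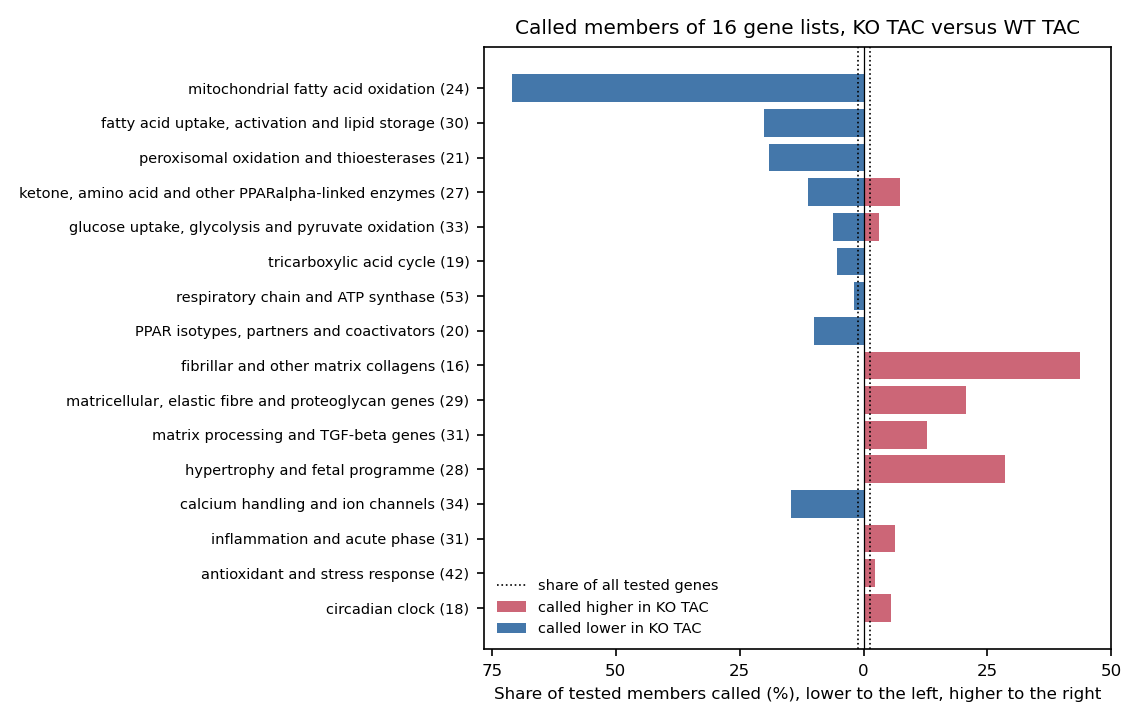
Share of the tested members of 16 gene lists called lower (blue, to the left) or higher (red, to the right) in KO TAC against WT TAC, in percent, with the number of tested members in parentheses and dotted lines at the share of all tested genes (1.14% lower and 1.32% higher). Mitochondrial fatty acid oxidation reaches furthest to the left and the collagens furthest to the right; 2 lists have calls of both signs, that of ketone and amino acid enzymes and that of glucose genes.

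The enzymes of the oxidation spiral fell by unequal amounts. Acadvl, the dehydrogenase for very long chains, differed by -1.06 ± 0.11, Acadm, that for medium chains, by -0.69 ± 0.08, and Acads, that for short chains, by -0.73 ± 0.14, whereas Acadl, that for long chains, did not pass at -0.28 ± 0.09 (adjusted p = 0.123). Acadm ranged from 39080 to 42418 in WT TAC and from 23732 to 26699 in KO TAC, a narrow spread on both sides of a clear gap. Hadha and Hadhb, the subunits of the trifunctional protein, differed by -0.65 ± 0.10 and -0.74 ± 0.09, and Acaa2, the thiolase that releases acetyl-CoA, by -1.26 ± 0.11. The furthest falls in this list were those of Decr1 and Ech1, which handle unsaturated fatty acids, while the other auxiliary enzymes, Eci1 and Eci2, differed by -0.76 ± 0.08 and -0.62 ± 0.09. Decr1, the dienoyl-CoA reductase, gave 13999, 15455, 13354 and 17604 in WT TAC and 4135, 5256, 4611 and 4637 in KO TAC. All KO arrays were far below all WT arrays, and the difference was -1.69 ± 0.11 (adjusted p = 6.06e-07). Ech1, the dienoyl-CoA isomerase, gave 47321, 52731, 54115 and 54031 against 19910, 18017, 16666 and 18901. Its groups were as clearly apart, with a difference of -1.50 ± 0.09 (adjusted p = 2.71e-07). Etfdh, which passes electrons from these dehydrogenases to ubiquinone, ranged from 16914 to 20181 in WT TAC and from 7060 to 8615 in KO TAC, a difference of -1.17 ± 0.11 (adjusted p = 1.3e-05), although its second probe set gave -0.35 and the mean of its probe sets was not called (-0.76, adjusted p = 0.27).

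On leaving out each array in turn, 15 to 17 of the 24 genes were called. The count was 11 without WT TAC 3, KO TAC 2 and KO TAC 3 or in a fit of the 8 TAC arrays alone, 13 with spike-in signal or with atrial marker signal as a covariate, and 10 with arrays centred on their medians. Centring ended the calls of Acadm (adjusted p = 0.0611), Acads (adjusted p = 0.124) and Hadha (adjusted p = 0.0969), and leaving out the 3 arrays ended that of Slc25a20 (adjusted p = 0.1). The 15 tested cardiomyocyte markers, none of which was called, had a median difference of -0.29 and summed signals of 916844 to 1236809 in WT TAC and 722134 to 896518 in KO TAC. That median was 0.02 after quantile normalization, where 16 oxidation genes were called and their median was -0.50. In ventricular tissue, fewer cells of a type and less RNA per cell cannot be told apart.

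**Figure D3:**
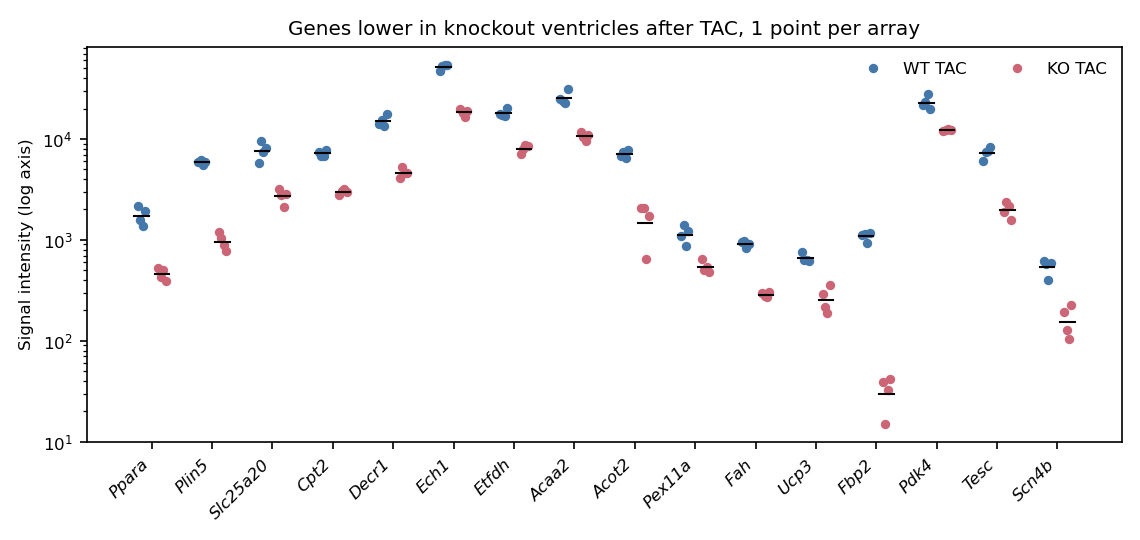
Signal intensity (vertical log axis) of 16 genes called lower in KO TAC, with 1 point per array, 4 WT TAC arrays in blue and 4 KO TAC arrays in red, and the mean of the log2 values as a black line. The groups are separate for every gene drawn, with the widest gap for Fbp2 and 1 low KO array for Acot2.

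The promoters of these genes were searched for the receptor's recognition sequence because the members fell together. RefSeq windows of 300 bases, from 250 before the annotated start to 50 after it (build GRCm38.p6), were matched for 8846 of the tested genes. The full element AGGTCANAGGTCA, on either strand, was in 3 of them (0.0339%), and in none of 102 genes called lower or 110 called higher. A looser spelling, AGGNCANAGGNCA, which also matches the full element, was in 23 (0.26%), again none of them called. The single hexamer AGGTCA was in 1329 windows (15%), in 13 of the 102 called lower (12.7%), in 23 of the 110 called higher (20.9%) and in 5 of 23 lipid genes called lower (21.7%). These matches describe letters in a short window and say nothing of binding. Of the 5 lipid genes, 3 are shown with the hexamer in capitals (TGACCT where it lies on the opposite strand): 2 acyl-CoA dehydrogenases with a single window, and Plin5, the lipid gene that fell the most. All lie on the minus strand and are written 5′ to 3′ along the gene. The hexamer starts 249, 87 and 170 bases before the annotated start, respectively.
Acadm, chr3:153944594-153944893: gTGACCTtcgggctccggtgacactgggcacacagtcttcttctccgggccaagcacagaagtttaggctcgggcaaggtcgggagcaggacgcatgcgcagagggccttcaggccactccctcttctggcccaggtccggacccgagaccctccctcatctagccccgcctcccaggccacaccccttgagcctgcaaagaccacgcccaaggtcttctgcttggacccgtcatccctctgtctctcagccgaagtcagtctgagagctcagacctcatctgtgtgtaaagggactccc
Acadvl, chr11:70015379-70015678: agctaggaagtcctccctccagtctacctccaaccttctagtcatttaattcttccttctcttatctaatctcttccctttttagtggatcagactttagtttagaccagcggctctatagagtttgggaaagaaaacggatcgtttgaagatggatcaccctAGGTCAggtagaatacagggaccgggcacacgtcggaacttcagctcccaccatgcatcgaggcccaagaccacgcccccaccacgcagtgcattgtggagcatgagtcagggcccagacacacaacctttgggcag
Plin5, chr17:56117499-56117798: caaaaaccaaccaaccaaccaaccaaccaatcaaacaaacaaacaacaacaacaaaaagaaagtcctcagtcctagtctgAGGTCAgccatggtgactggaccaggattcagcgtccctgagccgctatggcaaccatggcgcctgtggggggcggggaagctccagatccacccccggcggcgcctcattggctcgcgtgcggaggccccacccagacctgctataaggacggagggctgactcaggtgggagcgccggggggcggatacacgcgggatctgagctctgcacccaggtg

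Upstream of oxidation, 6 of 30 tested genes for fatty acid uptake, activation and lipid storage fell and none rose. Of all tested genes, 1.14% fell, and the median of this list was -0.12. Plin5, a coat protein that holds lipid droplets against mitochondria, had signals of 5933, 6155, 5492 and 5922 in WT TAC and 1206, 1034, 880 and 768 in KO TAC. It was the second largest fall of all tested genes, 6.13-fold (-2.62 ± 0.17, adjusted p = 6.06e-07), and its difference after sham operation was also -2.62 ± 0.17. Mlycd, malonyl-CoA decarboxylase, which removes the inhibitor of carnitine palmitoyltransferase, ranged from 1509 to 1962 in WT TAC and from 1027 to 1143 in KO TAC, a difference of -0.75 ± 0.11. Gpam and Dgat2, acyltransferases at the first and last steps of triglyceride synthesis, differed by -0.63 ± 0.10 and -0.61 ± 0.12, Vldlr, a lipoprotein receptor, by -0.56 ± 0.08, and Fabp3, the fatty acid-binding protein of the cardiomyocyte cytosol, by -0.47 ± 0.09. Cd36, the fatty acid transporter of the cell surface, gave 23302, 22663, 18214 and 22695 against 16276, 15754, 16093 and 17282. These groups did not overlap, but the difference of -0.40 ± 0.11 missed the threshold (adjusted p = 0.0757). Centring on medians ended the calls of Mlycd (-0.56, adjusted p = 0.0803), Dgat2 (-0.42, adjusted p = 0.134), Fabp3 (-0.28, adjusted p = 0.174) and Vldlr (-0.37, adjusted p = 0.126). Fabp3 was at -0.10 (adjusted p = 0.588) after quantile normalization and -0.31 (adjusted p = 0.342) with spike-in signal as a covariate, and Vldlr at -0.33 (adjusted p = 0.095) without probe sets that can match several transcripts. Averaging probe sets ended that of Gpam (-0.32, adjusted p = 0.48). The Dgat2 call was lost without WT TAC 4 or KO TAC 2 (adjusted p = 0.0545 to 0.0607), and that of Fabp3 without KO TAC 3 (adjusted p = 0.0552).

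Thioesterases and peroxisomal genes gave 4 falls and no rise among 21 tested members, where 1.14% of all tested genes fell. The list median was -0.08. Acot2, a mitochondrial acyl-CoA thioesterase, gave 6725, 7441, 6529 and 7699 in WT TAC and 2086, 2061, 643 and 1723 in KO TAC. KO TAC 3 was far below the other KO arrays, and all KO arrays were below all WT arrays (-2.26 ± 0.28, adjusted p = 0.000376). Its difference after sham operation was -1.06 ± 0.28. Pex11a, a peroxisome membrane protein linked to peroxisome division, gave 1088, 1395, 876 and 1212 against 642, 503, 541 and 483, without overlap (-1.06 ± 0.15, adjusted p = 0.00153). Abcd3, a peroxisomal transporter of acyl-CoA, differed by -0.70 ± 0.12 and Scp2, a carrier and thiolase of the peroxisome, by -0.44 ± 0.10. The second probe set of Abcd3 gave 0.59, and the mean of its probe sets -0.06 (adjusted p = 0.958). With arrays centred on their medians Scp2 was at -0.25 (adjusted p = 0.318), and its call was lost without any 1 of 6 of the arrays, all but WT TAC 3 and KO TAC 4 (adjusted p = 0.0569 to 0.0893).

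Among enzymes of ketone and amino acid metabolism and others tied to PPARalpha, 3 of 27 tested members fell and 2 rose. The shares of all tested genes were 1.14% and 1.32%. Fah, the last enzyme of tyrosine breakdown, had 948, 967, 832 and 911 in WT TAC against 294, 276, 274 and 303 in KO TAC. Its arrays were tight in both groups, with a difference of -1.67 ± 0.10 (adjusted p = 2.71e-07) under TAC and -2.0 ± 0.10 after sham operation. Ucp3, a mitochondrial uncoupling protein, ranged from 618 to 757 and from 187 to 358 (-1.37 ± 0.29, adjusted p = 0.0202), a call lost without WT TAC 1, KO TAC 2 or KO TAC 3 (adjusted p = 0.0558 to 0.0742). Ucp3 was at -1.04 (adjusted p = 0.33) without WT TAC 3, KO TAC 2 and KO TAC 3 together. Ephx2, soluble epoxide hydrolase, which degrades lipid epoxides, ranged from 7471 to 7883 and from 4048 to 5309 (-0.79 ± 0.12, adjusted p = 0.00226). The formyltetrahydrofolate dehydrogenase Aldh1l1, which handles folate-bound carbon units, rose from 84.9, 123, 123 and 89.8 to 397, 394, 342 and 317 (1.80 ± 0.16, adjusted p = 1.34e-05), although its second probe set gave 0.41 and the mean of its probe sets was not called (1.10, adjusted p = 0.246). Nnt, the mitochondrial transhydrogenase that makes NADPH, rose by 0.50 ± 0.10 under TAC and by 1.10 ± 0.10 after sham operation, and the TAC call was lost without WT TAC 1, WT TAC 2 or KO TAC 3 (adjusted p = 0.0565 to 0.0671).

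Few glucose genes were called. For uptake, glycolysis and pyruvate oxidation, 2 of 33 tested genes fell and 1 rose, where 1.14% and 1.32% of all tested genes did. The largest fall of all tested genes was among these glucose genes. Fbp2, muscle fructose-bisphosphatase, which runs a glycolytic step in reverse, had signals of 1127, 1144, 935 and 1182 in WT TAC and 38.7, 14.9, 32.6 and 41.9 in KO TAC. The KO arrays were near the floor of 11.9 to which lower values were raised, and the difference was -5.20 ± 0.39 (adjusted p = 1.94e-06), a 36.7-fold lower signal. After sham operation KO arrays gave 103, 45.7, 143 and 34.3 and the difference was -3.91 ± 0.39. Pdk4, the kinase that shuts off pyruvate oxidation when fatty acids are burned, had 21535, 23075, 28171 and 19637 against 11883, 12188, 12558 and 12186. KO arrays were nearly equal and all lower (-0.91 ± 0.21, adjusted p = 0.0377), but the call was lost on leaving out any 1 of the 8 arrays (adjusted p = 0.0599 to 0.103). Slc2a1, the basal glucose transporter, rose from 722, 794, 642 and 746 to 1162, 1311, 1623 and 1060 (0.81 ± 0.16, adjusted p = 0.0164), a call lost without KO TAC 2 or KO TAC 3 (adjusted p = 0.0523 to 0.0563). Without WT TAC 3, KO TAC 2 and KO TAC 3 together Slc2a1 was at 0.56 (adjusted p = 0.316). Slc2a4, the insulin-dependent transporter, overlapped between groups, with a difference of -0.03 ± 0.11 (adjusted p = 0.929). Downstream, Cs, citrate synthase, fell among 19 tricarboxylic acid cycle genes (-0.37 ± 0.08) and Cycs, cytochrome c, among 53 genes of the respiratory chain and ATP synthase (-0.44 ± 0.11). Their calls were lost without any 1 of 5 and of 7 arrays (adjusted p = 0.0522 to 0.0785 and 0.0753 to 0.151), and without KO TAC 1 the respiratory count was 4. After quantile normalization Cs was at -0.24 and Cycs at -0.13, with centring at -0.18 and -0.25, and with the mean of probe sets at -0.24 and -0.01 (adjusted p = 0.144 to 0.981 over these). All 53 were below 0, at a median of -0.30, but that median was -0.06 after quantile normalization and -0.11 with arrays centred on their medians, and it was 0.07 after sham operation.

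Potassium, sodium and calcium genes gave 5 falls and no rise among 34 tested members, where 1.14% of all tested genes fell. Tesc, tescalcin, a calcium-binding protein that acts on the sodium-proton exchanger, had 6091, 7390, 7685 and 8417 in WT TAC and 1880, 2354, 2177 and 1584 in KO TAC. All KO arrays were far below all WT arrays (-1.89 ± 0.17, adjusted p = 1.18e-05), and the sham difference was -2.03 ± 0.17. Scn4b, a beta subunit of the cardiac sodium channel, had 619, 577, 400 and 587 against 192, 129, 103 and 224, again with no overlap (-1.80 ± 0.24, adjusted p = 0.000833). Abcc9, the regulatory subunit of the ATP-sensitive potassium channel, differed by -0.46 ± 0.09, Kcnv2, a silent potassium channel subunit, by -0.92 ± 0.21 and Hrc, a calcium-binding protein of the sarcoplasmic reticulum, by -0.38 ± 0.09. Calls of the last pair were lost without any 1 of 6 and of 7 arrays, respectively (adjusted p = 0.0592 to 0.0893 and 0.0578 to 0.134), and the list count was 3 without KO TAC 1, KO TAC 2, KO TAC 3, WT TAC 2 or WT TAC 4. With arrays centred on their medians Abcc9 was at -0.27 (adjusted p = 0.257) and Hrc at -0.19 (adjusted p = 0.374), and the Abcc9 call was also lost without probe sets that can match several transcripts (adjusted p = 0.079) and in a fit of the 8 TAC arrays alone (adjusted p = 0.112). Atp2a2, the calcium pump of the sarcoplasmic reticulum, had 80460, 76702, 109668 and 87007 against 71430, 62756, 55934 and 72223. These signals did not overlap and missed the threshold (-0.43 ± 0.13, adjusted p = 0.111).

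Matrix genes made up a large group among the rises. Of 16 tested collagens 7 rose and none fell, with a list median of 0.43; of 29 matricellular, elastic fibre and proteoglycan genes 6 rose (median 0.63); and of 31 genes for matrix processing and TGF-beta signalling 4 rose (median 0.27), where 1.32% of all tested genes rose. None of the members named here was called in sham hearts. Col1a2, a chain of the main fibrillar collagen, had signals of 3607, 2332, 3070 and 2282 in WT TAC and 5301, 5408, 5809 and 6252 in KO TAC. The groups did not overlap, and KO signal was 2.05-fold higher (1.04 ± 0.17, adjusted p = 0.00376). Col3a1, the collagen that accompanies it, had 9024, 7365, 6578 and 6040 against 14743, 10346, 14662 and 14773, separate groups with KO TAC 2 below the other KO arrays (0.91 ± 0.18, adjusted p = 0.0135). Col8a1, a network-forming collagen, had 1614, 883, 1114 and 993 against 3052, 2406, 2224 and 2158 (1.12 ± 0.19, adjusted p = 0.00497). Its sham signals were 493 to 733 in KO and 695 to 971 in WT. Col1a1, the partner chain of Col1a2, was not called, since its brightest probe set gave 1672, 1450, 1610 and 1699 against 2788, 1900, 648 and 2316. KO TAC 3 was the lowest array and the others the highest (0.07 ± 0.37, adjusted p = 0.955), and its second probe set gave 0.86. Col14a1, Col5a2 and Col6a3 rose by 0.97 ± 0.23, 0.83 ± 0.17 and 0.61 ± 0.13.

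Proteins that organise the collagen network showed the same direction. Postn, periostin, secreted by activated fibroblasts, had 3083, 2167, 3001 and 2194 in WT TAC and 4327, 4212, 4966 and 8723 in KO TAC. All KO arrays were higher, KO TAC 4 by far (1.04 ± 0.20, adjusted p = 0.0149). Lum and Bgn, proteoglycans that bind collagen fibrils, rose from 4441 to 5586 up to 7429 to 8554 (0.60 ± 0.11, adjusted p = 0.0085) and from 4476 to 7508 up to 9342 to 10731 (0.77 ± 0.14, adjusted p = 0.0104). Neither pair of ranges overlapped. Fn1, fibronectin, rose by 0.75 ± 0.15, Cilp, a matrix protein of activated fibroblasts, by 1.27 ± 0.29, and Comp, which bridges collagen fibrils, by 1.74 ± 0.44 (adjusted p = 0.049). Lox, the enzyme that cross-links collagen, had 356, 234, 191 and 279 against 595, 363, 760 and 759, separate by a small margin at KO TAC 2 (1.20 ± 0.25, adjusted p = 0.0216), and its relative Loxl1 rose by 0.87 ± 0.20. P4ha1, a prolyl hydroxylase of collagen, and Tgfbr1, a TGF-beta receptor, rose by 0.64 ± 0.15 and 0.62 ± 0.13. Ccn2, a growth factor of the matrix, and Timp1, an inhibitor of matrix proteases, overlapped between groups and were not called, at 0.95 ± 0.27 (adjusted p = 0.0898) and 0.90 ± 0.36 (adjusted p = 0.229).

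These calls were sensitive to single arrays and to the choice of probe set. With the mean of probe sets Col14a1 was at 0.38 (adjusted p = 0.287), Fn1 at 0.42 (adjusted p = 0.463) and Tgfbr1 at 0.30 (adjusted p = 0.767), with other probe sets as low as -0.07, 0.10 and -0.10, and Col1a2 at 0.85 (adjusted p = 0.121). The number of collagens called ran from 3 without KO TAC 3 to 8 without WT TAC 1. The matricellular count was 3 without KO TAC 3 and 2 without WT TAC 4 and reached 9 without WT TAC 3. The processing count was 0 without KO TAC 3, 1 without KO TAC 2, WT TAC 2 or WT TAC 4 and 2 without KO TAC 4 or WT TAC 3. Col1a2, Col3a1, Col8a1, Lum and Bgn kept their calls without each single array. Without WT TAC 3, KO TAC 2 and KO TAC 3 together, all of these calls were lost (adjusted p = 0.0672 to 0.129). Calls were lost without WT TAC 4 for Postn (adjusted p = 0.0519), without KO TAC 3 for Col5a2 (adjusted p = 0.0576), without WT TAC 4 or KO TAC 3 for Fn1 (adjusted p = 0.0525 to 0.0576), without WT TAC 2, KO TAC 2 or KO TAC 3 for Col6a3 (adjusted p = 0.0537 to 0.0641), without WT TAC 4, KO TAC 2 or KO TAC 3 for Tgfbr1 (adjusted p = 0.0564 to 0.0678) and without any 1 of 4 to 6 arrays for Lox, Col14a1, Cilp, Comp, Loxl1 and P4ha1 (adjusted p = 0.0531 to 0.154). Leaving out WT TAC 3, KO TAC 2 and KO TAC 3 together left no collagen called, although the list median was 0.44; the fit of the 8 TAC arrays alone called 1 collagen and 1 matricellular gene, and with atrial marker signal as a covariate 2 collagens and no matricellular gene were called (medians 0.42 and 0.55). Fibroblast markers gave 3 rises among 13 tested genes and activated fibroblast markers 3 among 7, where 1.32% of all tested genes rose. All the markers that rose are matrix genes named above. The count of activated fibroblast markers was 0 without WT TAC 4 and 1 without KO TAC 1, KO TAC 2, KO TAC 3 or WT TAC 2.

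**Figure D4:**
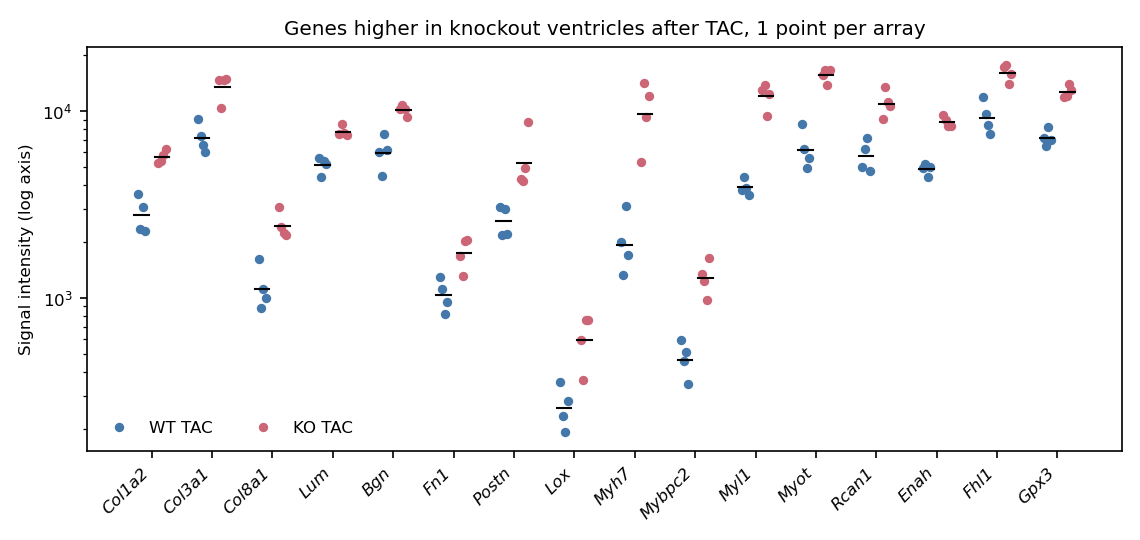
Signal intensity (vertical log axis) of 16 genes called higher in KO TAC, with 1 point per array, 4 WT TAC arrays in blue and 4 KO TAC arrays in red, and the mean of the log2 values as a black line. Matrix genes are on the left and sarcomere and stress genes on the right; no KO array falls below a WT array, and the largest difference between means is that of Myh7.

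Sarcomere and hypertrophy genes formed another. Of 28 tested members of the hypertrophy and fetal programme list, 8 rose and none fell, where 1.32% of all tested genes rose. The list median was 0.31. Myh7, the slow beta-myosin heavy chain of the fetal ventricle, had signals of 1982, 1320, 3089 and 1698 in WT TAC and 5303, 14039, 9331 and 12100 in KO TAC. Every KO array was above every WT array, and the difference was 2.31 ± 0.41 (adjusted p = 0.00853), 4.98-fold. After sham operation it was 1.59 ± 0.41 and not called (adjusted p = 0.138). Mybpc2, the fast-muscle form of myosin-binding protein C, had 594, 458, 512 and 347 against 1341, 1237, 969 and 1642 (1.44 ± 0.28, adjusted p = 0.0152). Myl1, a myosin light chain of fast muscle and the embryonic heart, had 3764, 4418, 3876 and 3572 against 13009, 13843, 9401 and 12321, separate groups at more than 2-fold (1.63 ± 0.19, adjusted p = 0.00023). Myot, a protein of the Z-disc, had 8522, 6268, 4951 and 5621 against 15511, 16535, 13838 and 16481, likewise separate (1.32 ± 0.16, adjusted p = 0.00032). Both Myl1 and Myot were also called in sham hearts, at 0.93 ± 0.19 and 0.90 ± 0.16.

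Signals of load and remodelling inside the myocyte were mixed. Rcan1, an inhibitor of calcineurin whose transcription calcineurin itself drives, had 5003, 6254, 7196 and 4772 in WT TAC and 9098, 13430, 11204 and 10586 in KO TAC. Its groups were separate (0.94 ± 0.18, adjusted p = 0.0124), while the sham difference was -0.42 ± 0.18. Enah, an actin regulator of the intercalated disc, had 4973, 5214, 4448 and 5011 against 9512, 8935, 8361 and 8334, tight in both groups (0.84 ± 0.11, adjusted p = 0.000949), with -0.01 ± 0.11 after sham operation. Fhl1, a stretch-linked LIM protein, rose by 0.80 ± 0.15 and Tpm2, a tropomyosin, by 0.83 ± 0.19, each without overlap. Nppa, atrial natriuretic peptide, had 32398, 42485, 48346 and 33651 against 66546, 56612, 55592 and 69234, separate groups (0.67 ± 0.16, adjusted p = 0.0356). By contrast, Nppb, brain natriuretic peptide, overlapped at 0.03 ± 0.16 (adjusted p = 0.96), and Acta1, skeletal actin, overlapped in part at 0.41 ± 0.30 (adjusted p = 0.541). Myh6, the adult alpha-myosin heavy chain, was not called at -0.37 ± 0.12 (adjusted p = 0.138), and its difference was 0.01 after quantile normalization.

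The means of the atrial markers Myl4, Myl7 and Sln were higher in KO TAC, like those of the called genes of the hypertrophy list. Within KO TAC, Myh7 was lowest on KO TAC 1, and Mybpc2 and Myl1 on KO TAC 3, both arrays with high atrial signal. The order of 4 arrays allows no conclusion. A part of atrial tissue in the sarcomere differences was not tested beyond the covariate fit below. Myl4, the atrial myosin light chain, had 908, 235, 474 and 326 in WT TAC and 2101, 831, 2321 and 463 in KO TAC. Myl7, the other atrial light chain, had 785, 12.5, 212 and 41.7 against 1871, 487, 2117 and 160, and Sln, sarcolipin, had 380, 5.8, 34.6 and 7.2 against 650, 158, 794 and 130. WT TAC 1, KO TAC 1 and KO TAC 3 were the highest arrays for all 3 genes, and the groups overlapped. None passed the test (adjusted p = 0.326 to 0.383), in which values under 11.9 were raised to that floor. Of 6 tested atrial markers 1, Nppa, was called, the list median was 1.07, and the summed signal of the list was 35868 to 50339 in WT TAC and 59101 to 72453 in KO TAC. After sham operation the list median was 0.75, with summed signals of 17396 to 29872 in WT and 29672 to 57892 in KO. With the mean of Myl4, Myl7 and Sln as a covariate, 2 genes of the hypertrophy list were called and its median was 0.08; Myh7 differed by 1.92 (adjusted p = 0.0629), and Myl1, Myot and Enah were called. Myl4 and Myl7 are themselves members of the hypertrophy list, so its count and median in that fit are not independent of the covariate. Averaging a gene's probe sets ended the calls of Enah (0.49, adjusted p = 0.409) and Fhl1 (0.38, adjusted p = 0.688). Without single arrays the list count ran from 4 (without WT TAC 4) to 8, with 5 without KO TAC 2 or WT TAC 2. Calls were lost without WT TAC 4 for Mybpc2 (adjusted p = 0.0527), without 4 of the arrays for Tpm2 and without 7 of the arrays for Nppa (adjusted p = 0.0548 to 0.116). Leaving out WT TAC 3, KO TAC 2 and KO TAC 3 together left 1 gene of the list called (3 in the fit of the 8 TAC arrays alone) and ended the calls of Myh7 (2.28, adjusted p = 0.0996), Rcan1 (0.89, adjusted p = 0.111) and Fhl1 (0.80, adjusted p = 0.129).

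**Figure D5:**
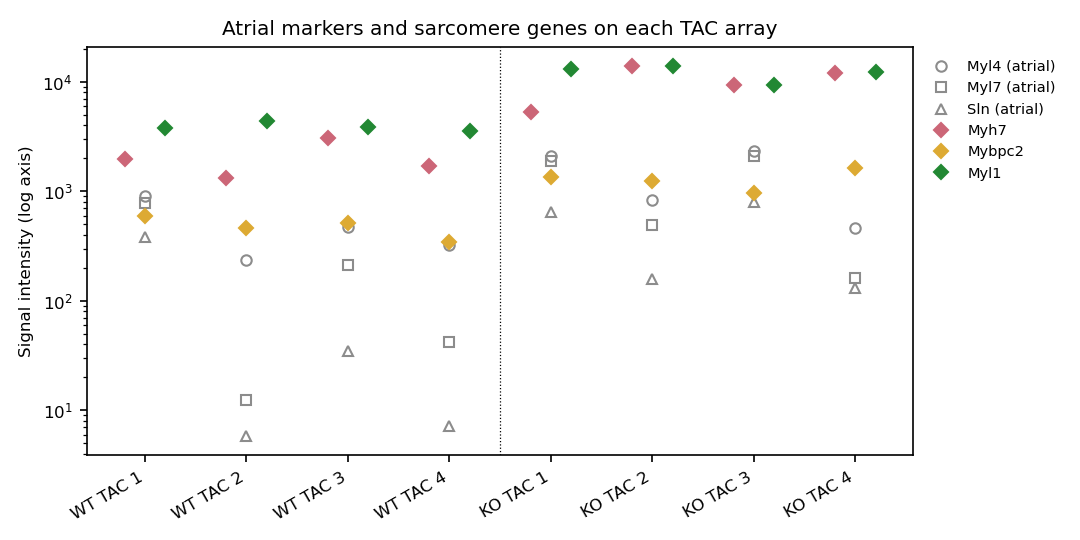
Signal intensity (vertical log axis) of 3 atrial markers (open grey symbols) and 3 sarcomere genes (filled diamonds) on each of the 8 TAC arrays (horizontal axis). The atrial markers are highest on WT TAC 1, KO TAC 1 and KO TAC 3 and lowest on WT TAC 2 and WT TAC 4; on every KO array they lie above both of these, as do Myh7, Mybpc2 and Myl1.

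Macrophage markers leaned upward in KO TAC, while the inflammation, antioxidant and clock lists gave few calls. Of all tested genes, 1.32% rose. Of 14 tested markers of macrophages and monocytes 5 rose and none fell, all 14 differences were above 0 (median 0.44), and the summed signal was 40521 to 52750 in WT TAC and 51313 to 65441 in KO TAC. The lean was also present without load. After sham operation the median of these markers was 0.29, with none called, and the median change with load was 0.14. C1qb, a subunit of the first complement component made by resident macrophages, had 2592, 2908, 2511 and 2246 against 4525, 3900, 3572 and 3956. The groups were separate (0.64 ± 0.10, adjusted p = 0.00428), and this call was kept without each array. C1qa, C1qc, Lgals3, a lectin of activated macrophages, and Fcgr1, an antibody receptor, rose by 0.48 ± 0.12, 0.53 ± 0.13, 0.95 ± 0.21 and 0.74 ± 0.18, and each call was lost without any 1 of 4 to 7 arrays (adjusted p = 0.0524 to 0.144). Fcgr1 overlapped between groups and was at 0.35 (adjusted p = 0.435) with the mean of its probe sets. The marker count was 1 without KO TAC 1, WT TAC 3 or WT TAC 4, 2 without KO TAC 2, KO TAC 4 or WT TAC 1 and 3 without KO TAC 3. Of 31 inflammation and acute phase genes 2 rose, Lgals3 and Cxcl14, and the list median of 0.03 equalled that of all tested genes. The count was 1 without KO TAC 1, KO TAC 4 or WT TAC 4, and 4 without KO TAC 2 or WT TAC 3. Cxcl14, a chemokine, rose from 326 to 473 up to 579 to 804 (0.78 ± 0.14, adjusted p = 0.00697). That call was lost without WT TAC 3, KO TAC 2 and KO TAC 3 together (0.60, adjusted p = 0.147). Gpx3, a secreted glutathione peroxidase, was the call among 42 antioxidant and stress genes, with 7153, 6490, 8220 and 6993 against 11860, 12076, 14003 and 13002, separate groups (0.82 ± 0.11, adjusted p = 0.000949). Per1, a clock gene, was the call among 18 of its list at 0.70 ± 0.16, lost without any 1 of 6 arrays (adjusted p = 0.0541 to 0.11).

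Several of the largest differences belonged to none of these groups, and most were present without load. Wdfy1, an endosomal adaptor protein, was the largest rise, from 131, 61.3, 24.1 and 46 to 603, 568, 720 and 608 (3.51 ± 0.37, adjusted p = 6.97e-05), with 1.84 ± 0.37 after sham operation. Its 5 probe sets ranged from -0.58 to 3.51. Rab4a, a GTPase of endosome recycling, rose by 1.78 ± 0.33 under TAC and 1.77 ± 0.33 in sham hearts, and Slc38a1, a glutamine transporter, by 1.73 ± 0.15 and 1.78 ± 0.15. Plbd1, a phospholipase-like protein, fell from 3182 to 3803 down to 879 to 1252 (-1.75 ± 0.13, adjusted p = 1.61e-06), and Lgals4, a galectin, from 660 to 1089 down to 226 to 304 (-1.63 ± 0.28, adjusted p = 0.00563), with -1.42 and -1.40 in sham hearts. The calls of Lgals4 (-1.34, adjusted p = 0.175) and Rab4a (1.91, adjusted p = 0.0919) were lost without WT TAC 3, KO TAC 2 and KO TAC 3 together. Slc38a1 has a second probe set at -0.35. It lies on the chromosome of Ppara, where 434 genes other than Ppara were tested. With Slc38a1 among them, 7 rose and 9 fell, and among the 40 tested genes nearest to Ppara none rose and 2 fell. Over all tested genes, 1.32% rose and 1.14% fell. The labels do not give the strain of either genotype.

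The dimmer members of the 15 largest rises and 15 largest falls among called genes with separate groups were less stable. Ccne1, a cyclin, Ncf4, a subunit of the phagocyte oxidase, Mfsd3, a transporter, Pcbd1, a cofactor enzyme, Spsb4, an adaptor of ubiquitin ligases, and Rrm2, a subunit of ribonucleotide reductase, rose by 1.48 to 1.96 on signals of 43 to 1207. Zdhhc12, a palmitoyltransferase, Pde6g, a phosphodiesterase subunit, and Hk3, a hexokinase, had differences of -2.19, -1.95 and -1.56 on signals of 26.8 to 715. Of these 9 genes, Hk3 lost its call without WT TAC 4 or KO TAC 2 and the others without any 1 of 5 to 7 arrays. Hk3, Ccne1 and Rrm2 were read by probe sets that can match several transcripts. Other probe sets gave 0.31 for Hk3, -0.16 for Ccne1 and 1.31 and 1.45 for Rrm2. The second probe set of Pde6g gave -0.56 and that of Spsb4 0.82. Spsb4 was at 0.84 (adjusted p = 0.532) without WT TAC 3, KO TAC 2 and KO TAC 3.

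The genes whose genotype difference changed most with load, by the smallest p of the direct test, were Hopx, Col8a1, Efemp1, Rcan1 and Enah, each with an adjusted p of 0.125 and so not called. Hopx, a homeodomain regulator of cardiomyocytes, had 33859, 35119, 38731 and 40082 in WT TAC and 25413, 25394, 25650 and 27554 in KO TAC. The difference was -0.50 ± 0.09 under load and 0.23 ± 0.09 after sham operation, a change of -0.74 ± 0.12. Its TAC call was lost with quantile normalization (-0.32, adjusted p = 0.074) and with centring (-0.31, adjusted p = 0.177). Efemp1, a matrix glycoprotein, ran the same way, with -0.68 ± 0.16 under TAC and 0.59 ± 0.16 in sham hearts. Col8a1, Rcan1 and Enah ran the other way, with changes of 1.56 ± 0.26, 1.36 ± 0.25 and 0.85 ± 0.16. Ech1 differed by -0.87 ± 0.09 after sham operation and -1.50 ± 0.09 under TAC, a change of -0.64 ± 0.13 that was also at an adjusted p of 0.125. For Cpt2, Slc25a20 and Plin5, whose differences were near equal in the loaded and sham hearts, the changes were 0.06 ± 0.15, 0.00 ± 0.33 and 0.00 ± 0.24.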

How the data were processed

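The deposited table holds linear signal intensity for 16 arrays and 45101 probe sets, produced by the authors in GCOS 1.4 (per the submitters' processing notes), and the mean between the 2nd and 98th percentiles of each array was 499.8. Its settings, detection calls, hybridisation dates and number of animals per array are unstated in the labels and headers. Arrays give no count of molecules, so their number, 4 per group, limits precision. Values were raised to a floor of 11.9, the 10th percentile, then converted to log2 without renormalizing. Each of 18193 genes was read by its brightest probe set naming that gene alone (34741 of 34945 such probe sets were matched by gene ID to the reference table), and the dimmest 40% of genes were left out. A linear model with a mean for each of the 4 groups was estimated over the 16 arrays (limma 3.58.1, R 4.3.3; 12 residual degrees of freedom), after being checked on simulated data. Tests are two-sided, with Benjamini-Hochberg adjustment over the 10916 genes tested, a threshold of 0.05 and standard errors from the moderated fit. Named are the 15 largest rises and 15 largest falls among called genes with separate groups, up to 6 called members of each of 16 lists, a panel of 30 genes and the 5 smallest p-values of the direct TAC and sham test. Acadl, Acads, Acadvl, C1qa, C1qb, C1qc, Cpt1a, Eci1, Eci2, Fcgr1, Hadhb, Myl4, Myl7 and Sln were named beside these, after their values were seen. The comparison, lists, panel and markers were chosen with earlier results of these data known, so no list count is independent support. Scaling, floor, filter, probe-set rule, model, single arrays and 3 covariates or exclusions added after seeing the data were varied.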

Additional observations from a re-analysis of the deposited data

Results flagged for a closer look

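For the 106 genes named, 212 groups of 4 TAC arrays were searched for an array whose gap to its nearest neighbour exceeded Dixon's 95% critical value as a share of the group's range, which chance gives in about 1 group in 20. Of the 212, 10 groups had one, which is about the number chance gives. WT TAC 3 was the low array for Cd36, at 18214 against 22663 to 23302 on the other WT TAC arrays, and for Scn4b, at 399.6 against 577 to 619. KO TAC 3 was low for Gpam, at 4836 against 5301 to 5358, and for Acot2, at 643 against 1723 to 2086. KO TAC 2 was low for Col3a1, at 10346 against 14662 to 14773, and high for Lum, at 8554 against 7429 to 7610. Each of these 3 arrays also had an extreme spike-in signal, and the part of that in these values was not tested. KO TAC 4 was high for Zdhhc12, at 292 against 82.1 to 96.2, and for Hopx, at 27554 against 25394 to 25650. WT TAC 1 was high for Ucp3, at 757 against 618 to 634, and WT TAC 4 was low for Rab4a, at 83 against 277 to 318. All groups of these genes stayed on their own side of the other genotype.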

How the results depend on the processing

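Of the 89 named genes that were called, 71 were tested with the dimmest 60% left out and 88 with the mean of probe sets. Without probe sets that can match several transcripts, 87 were tested. Without each single array 48 kept their call, and 20 did so under every alternative that tested them. The others lost it in at least 1. Of the 89, 20 lost it with arrays centred on their medians, 12 with quantile normalization, 38 with no filter, 52 with only the 8 arrays, and 55 without WT TAC 3, KO TAC 2 and KO TAC 3. The number of genes called (268, with 144 higher and 124 lower) moved by over 1.5 times with no filter on dim genes (121, with 50 and 71), the mean of probe sets (125, with 58 and 67), limma with trend and robust settings (424, with 217 and 207) and only the 8 arrays compared (66, with 22 and 44). With arrays centred on their medians, 238 genes were higher and 40 lower. Leaving out single arrays gave 133 to 244 calls, 54 to 124 higher and 72 to 124 lower. Alternatives chosen after seeing the data gave 56 (12 and 44) without WT TAC 3, KO TAC 2 and KO TAC 3, 78 (23 and 55) with spike-in signal as a covariate and 89 (32 and 57) with atrial marker signal as a covariate. In sham hearts, 81 genes were called, 42 with arrays centred on their medians, 38 with only the 8 sham arrays, and 55 to 74 without single arrays. The direct test of TAC against sham called 0, or 1 with no filter or the mean of probe sets, 13 with trend and robust settings and 0 to 1 without single arrays. Quantile normalization, no floor, a floor at the 25th percentile, leaving out the dimmest 60% and array weights kept the total within 1.5 times of 268. The causes of these moves were not tested. Some of these fits also held fewer arrays or more genes.

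Same-numbered WT TAC and KO TAC arrays showed little common deviation (correlations of 0, 0.13, -0.10 and -0.02), and the labels state no pairing. Whether the numbers pair the arrays cannot be settled from so few values. With the replicate block 187 genes were called, 100 higher and 87 lower. Directions turned for Hk3 (0.31) and Slc38a1 (-0.35) when probe sets that can match several transcripts were left out. Among genes not called, turned values were 0.01 for Myh6 with quantile normalization; 0.16, 0.12 and 0.05 for Slc2a4 with centring, the mean of probe sets and the spike-in covariate; -0.11 for Cpt1a with the mean of probe sets; and -0.11 for Myl4 with the atrial covariate. The atrial covariate includes Myl4 itself. Without single arrays Slc2a4 ran from -0.08 to 0.01, Nppb from -0.08 to 0.14 and Col1a1 from -0.18 to 0.52. Dim probe sets limit precision: levels near the floor, such as Fbp2 in the KO, set only a rough size.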

Other observations

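Probe sets that the array annotation gives to no gene were also compared. Of 3811 tested, 5 were higher and 18 lower in KO TAC (0.604% called), and of 614 given to several genes, 4 were higher and 3 lower (1.14%), where 0.969% of 22597 probe sets with a single gene were called. None of 13 tested endothelial markers was called, with a median difference of 0.08, and none of 6 tested markers of cycling cells, with a median of 0.46. Markers of T and NK cells, B cells and neutrophils were mostly too dim to test, with 1, 3 and 3 tested genes and no call.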
